A study of Mus musculus with 3 samples.

Results

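The transforming growth factor beta (TGF-beta) signalling genes examined here were 8 named genes, chosen by symbol among the 32285 genes listed for cells of the mouse medial prefrontal cortex (mPFC). They were the ligand genes Tgfb1, Tgfb2 and Tgfb3, the receptor genes Tgfbr1 and Tgfbr2, the signal transducer gene Smad3, and the feedback inhibitor genes Smad7 and Pmepa1. All 8 were found. The study made 1 droplet single-cell library per group, each from 2 pooled mice: estrous females, diestrous females, and males. The labels give no strain, age, genotype or treatment. The question was how mPFC neurons respond to the estrous cycle and to sex. Levels below are shares of the UMIs of a cell class in a library, and the 2 mice of a pool are summed in them.

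TGF-beta ligands are secreted in a latent form and are freed outside the cell. The free ligand binds the type II receptor, which recruits and phosphorylates the type I receptor, and this kinase then activates Smad2 and Smad3, which enter the nucleus with Smad4 and regulate transcription. Smad7 and Pmepa1 are themselves induced by the pathway and dampen it. In the brain, TGF-beta signalling is known for keeping microglia, the resident immune cells, in their homeostatic state, and for its role in the vessel wall.

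Cells were sorted into 11 classes by marker genes that did not include any of the 8 genes. A cell needed at least 3 markers of its class, and no other class's share of markers could exceed 0.5 of its own. The estrus, diestrus and male libraries gave 3288, 2584 and 2568 microglia, 2730, 2239 and 1781 endothelial cells, and 320, 391 and 340 pericytes, the contractile cells that wrap capillaries. They gave 1295, 875 and 1479 astrocytes, 1130, 1514 and 1373 glutamatergic neurons and 143, 308 and 287 GABAergic neurons. The labels call the cells total mPFC neurons, yet glutamatergic neurons made up only 9.19%, 10.7% and 8.82% of the retained cells and GABAergic neurons 1.16%, 2.18% and 1.84%. Depth fell in the same order of libraries, with medians of 37500.5, 26685 and 15583 unique molecular identifiers (UMIs) per glutamatergic neuron and 5277, 4322.5 and 3174 per microglial cell. Libraries shared 68 to 97 cell barcodes by pair, 0.47 to 0.56% of the smaller library. Levels are UMIs per 1000000 UMIs of nuclear genes (CPM), summed over the cells of a class in a library.

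RNA free in the cell suspension differed between the libraries. The summed level of 4 neuronal genes kept out of the sorting was, in the 6 non-neuronal classes with at least 100 cells per library, 1.93 to 5.62% of its glutamatergic level in estrus, 4.03 to 8.79% in diestrus and 5.81 to 13.4% in male. Microglial genes kept out of the sorting stood at 0.104 to 0.143% of their microglial level in glutamatergic neurons, and endothelial genes at 0.122 to 0.160% of their endothelial level. Such shares are given below for several of the low values.

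Differences between classes were tested with edgeR's quasi-likelihood test over the 3 libraries, with the library as a block and p-values adjusted by the Benjamini-Hochberg method over the 17420 genes tested. Each class was thus measured once in each library. The p-values measure how far class differences vary between 3 libraries, each of 1 pool and a different group. Shifts common to all classes of a library are taken out by the block. This spread was estimated in 1 fit over all classes with at least 100 cells per library. Microglia differed from glutamatergic neurons in all 8 members (6 higher, 2 lower), where 78.1% of all genes tested were called, so the count itself is close to that of any list. The signed median log2 fold change was 3.09 over the 8 members and -0.06 over all genes. Of all genes 37.4% were higher and 40.6% lower, so the median over all genes does not measure the size of their differences.

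**Figure D1:**
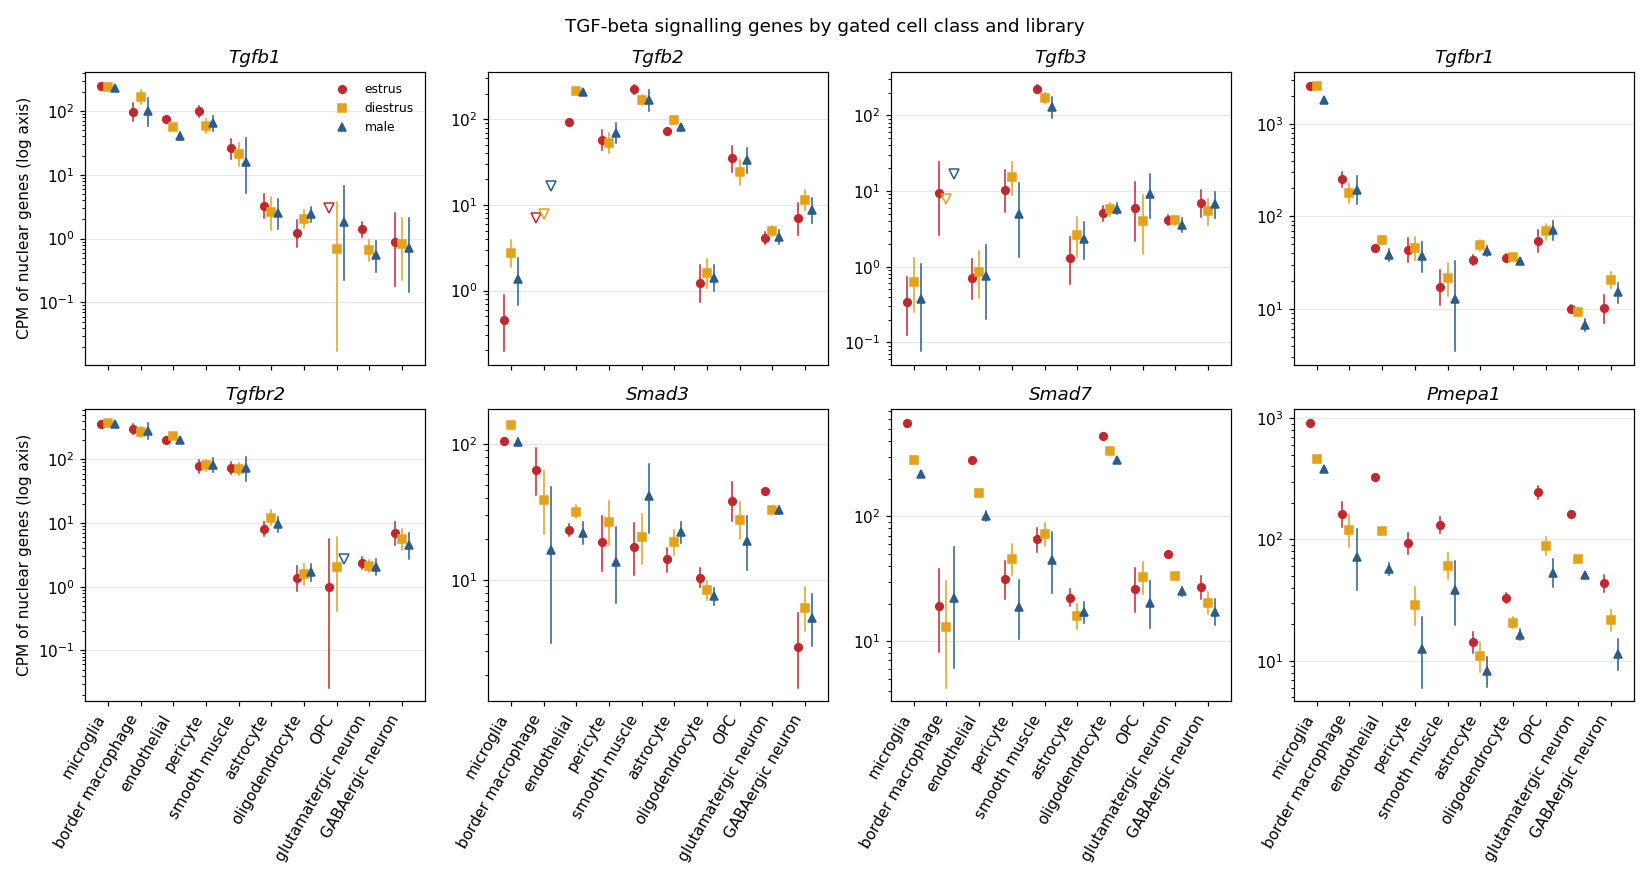
Level of each member in CPM (log axis) in 10 cell classes, with 1 point per library and bars giving the 95% exact Poisson interval of the UMI count. An open triangle marks a library with no UMI, at the level that 3 UMIs would give. OPC stands for oligodendrocyte precursor cell. Tgfb1, Tgfbr1 and Tgfbr2 were highest in microglia, Tgfb2 in smooth muscle and endothelial cells, and Tgfb3 in smooth muscle cells.

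The 3 ligand genes were highest in different cells. Tgfb1 (mm10 chromosome 7: 25687002 to 25705077, plus strand) is a microglial and vascular transcript in these libraries, whereas Tgfb2 (chromosome 1: 186622792 to 186705989, minus strand) was nearly absent from microglia and present in endothelial cells, smooth muscle cells and astrocytes. The promoters of this pair, from RefSeq on GRCm38.p6, are shown because the classes that hold their transcripts hardly overlap outside the vessel wall. Each runs 5′ to 3′ on the strand of its gene from 250 bases before to 50 bases after the start site, and capitals mark every match, on either strand, to GGGCGG (the GC box bound by Sp1-type factors) or to TATAAA (the TATA box), which do not overlap each other here.
Tgfb1 promoter, chr7:25686752-25687051, plus strand: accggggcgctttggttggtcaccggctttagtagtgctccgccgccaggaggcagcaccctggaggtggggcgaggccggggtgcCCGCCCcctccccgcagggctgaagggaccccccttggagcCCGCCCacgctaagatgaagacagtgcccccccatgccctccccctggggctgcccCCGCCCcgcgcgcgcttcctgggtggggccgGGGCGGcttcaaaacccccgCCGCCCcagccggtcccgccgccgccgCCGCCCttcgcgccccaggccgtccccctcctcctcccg
Tgfb2 promoter, chr1:186705940-186706239, minus strand: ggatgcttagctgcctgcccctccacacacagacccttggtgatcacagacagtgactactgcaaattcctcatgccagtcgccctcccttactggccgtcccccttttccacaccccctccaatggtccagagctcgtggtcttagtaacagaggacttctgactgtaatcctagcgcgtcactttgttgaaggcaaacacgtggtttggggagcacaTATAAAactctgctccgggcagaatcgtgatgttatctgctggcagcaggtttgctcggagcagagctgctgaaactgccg
The Tgfb1 window was 77.0% G and C, above 97.6% of all 32851 promoters of this length (median 52.7%), and held 6 GC boxes and no TATA box. The Tgfb2 window was 54.3% G and C and held a single TATA box, beginning at position -31 relative to the start site, and no GC box. The GC box letters occurred in 35.7% of all promoters and the TATA box letters in 13.6%. RefSeq promoters were matched for 5 of the 8 members, and no methylation or binding data bear on these windows.

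Tgfb1 had 246, 240 and 231 CPM in microglia of the estrus, diestrus and male libraries. Border macrophages, the macrophages of the meninges and perivascular spaces, had 97.5, 168 and 99.6 CPM, pericytes 99.7, 58.1 and 64.5 CPM, and endothelial cells 73.9, 55.9 and 40.2 CPM. The microglial values lay above those of every other class in all 3 libraries, with a mean of 239 ± 7.47 CPM (SD, n = 3). Endothelial cells and pericytes overlapped, and their difference was -0.02 ± 0.23 on the log2 scale (SE, edgeR adjusted p = 0.981). Astrocytes had 2.50 to 3.29 CPM and glutamatergic neurons 0.547 to 1.41 CPM. The neuronal level was 0.237 to 0.573% of the microglial one, against 0.104 to 0.143% for the microglial genes kept out of the sorting. Microglia over glutamatergic neurons gave a log2 fold change of 8.22 ± 0.29 for Tgfb1 (SE, edgeR adjusted p = 1.16e-15).

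Tgfb2 had 223, 169 and 169 CPM in smooth muscle cells (206, 222 and 74 cells) and 92.0, 217 and 207 CPM in endothelial cells. Astrocytes had 72.9, 98.8 and 80.9 CPM, pericytes 57.9, 53.6 and 69.4 CPM, and oligodendrocyte precursor cells 35.2, 24.4 and 33.9 CPM. Endothelial cells and smooth muscle cells overlapped. Endothelial cells and astrocytes overlapped only across libraries, and the endothelial value was the higher one within each library. Their log2 fold change was 1.13 ± 0.20 for Tgfb2 (SE, edgeR adjusted p = 6.54e-05). Every astrocyte value lay above every pericyte value. Pericytes over astrocytes gave -0.65 ± 0.24 for Tgfb2 (log2 fold change with SE, edgeR adjusted p = 0.0283), but the edgeR adjusted p was 0.200 without the diestrus library (-0.45) and 0.0855 without the male library (-0.79). Microglia had 0.452 to 2.78 CPM, or 0.492 to 1.28% of the endothelial level, where endothelial genes kept out of the sorting stood at 0.458 to 0.527%. Border macrophages had no Tgfb2 UMI in any library, which allows up to 7.13, 7.74 and 16.6 CPM. Endothelial cells over glutamatergic neurons gave 5.33 ± 0.24, and astrocytes over glutamatergic neurons 4.20 ± 0.23 (log2 fold change of Tgfb2 with SE; both adjusted p-values are in edgeR's fit 7.56e-14 and 2.73e-12).

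Tgfb3 (chromosome 12: 86056745 to 86079041, minus strand) marked the muscular vessel wall. It had 223, 170 and 128 CPM in smooth muscle cells, which form the wall of arterioles, against 10.4, 15.2 and 4.96 CPM in pericytes and 0.714, 0.855 and 0.756 CPM in endothelial cells. The smooth muscle values stood apart from every other class in all 3 libraries. In a fit added after the data were seen, with classes of at least 50 cells, the log2 fold change was 4.30 ± 0.31 over pericytes and 7.77 ± 0.33 over endothelial cells (SE, edgeR adjusted p = 4.63e-11 and 1.45e-16). The same fit put Tgfb2 1.92 ± 0.27 higher in smooth muscle cells than in pericytes (edgeR adjusted p = 8.38e-06), while its difference from endothelial cells was 0.20 ± 0.24 (edgeR adjusted p = 0.593). Tgfb3 is overlapped on the other strand by Ttll5, and neither labels nor file headers say whether counting used strand. Ttll5 had 16.6, 33.4 and 41.5 CPM in smooth muscle cells, against 141 to 205 CPM in oligodendrocytes, where Tgfb3 had 5.10 to 5.86 CPM.

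Receptor genes were led by microglia. Tgfbr1, the type I receptor kinase (chromosome 4: 47353222 to 47414931), had 2591, 2574 and 1805 CPM in microglia. The next classes by mean were border macrophages with 252, 178 and 194 CPM and fibroblasts with 288, 117 and 159 CPM (17, 60 and 31 cells), which overlapped each other. Endothelial cells, pericytes and astrocytes overlapped in turn, at 38.2 to 55.9, 37.2 to 45.6 and 33.8 to 48.8 CPM. Glutamatergic neurons had 9.91, 9.32 and 6.76 CPM, 0.362 to 0.383% of the microglial level. Border macrophages thus held 6.92 to 10.7% of the microglial Tgfbr1 level, while they held 68.1 to 99.4% of that of the microglial genes Ctss, Tyrobp, Fcer1g, Ly86 and Laptm5.

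Tgfbr2, the type II receptor that binds the ligand (chromosome 9: 116084293 to 116175360), was spread over more classes. It had 360, 374 and 362 CPM in microglia, 304, 271 and 282 CPM in border macrophages, and 202, 230 and 202 CPM in endothelial cells. Pericytes had 77.9, 80.4 and 83.1 CPM and smooth muscle cells 73.3, 71.9 and 73.4 CPM. Astrocytes had 8.16 to 12.2 CPM and glutamatergic neurons 2.07 to 2.37 CPM, or 0.562 to 0.658% of the microglial level, where microglial genes kept out of the sorting stood at 0.104 to 0.143%. Microglia, border macrophages, endothelial cells, pericytes and smooth muscle cells each kept their 3 libraries within a narrow band. Microglia, border macrophages and endothelial cells did not overlap. In border macrophages over microglia the log2 fold change was -3.47 ± 0.23 for Tgfbr1 and -0.35 ± 0.14 for Tgfbr2 (SE, added fit, edgeR adjusted p = 5.01e-12 and 0.0944).

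Microglia over endothelial cells was called for 7 of the 8 members, where 55.2% of all genes were called, and the exception was Tgfb3. The log2 fold change was 5.62 ± 0.24 for Tgfbr1 (SE, edgeR adjusted p = 4.54e-14) and 0.75 ± 0.14 for Tgfbr2 (SE, edgeR adjusted p = 8.09e-05). Tgfb2 gave -6.88 ± 0.29, the only called member that was lower in microglia. Endothelial cells over glutamatergic neurons was called for 7 of 8 members (74.1% of all genes), pericytes over glutamatergic neurons for 7 (59.9%) and astrocytes over glutamatergic neurons for 8 (70.6%). In the last pair of contrasts Tgfb3 was 1.21 ± 0.32 higher in pericytes and -0.99 ± 0.30 in astrocytes (log2 fold change with SE); the edgeR adjusted p was 0.143 for pericytes without the diestrus library (0.86) and 0.0991 for astrocytes without the estrus library (-0.69). Endothelial cells over astrocytes was called for 7 members (62.1% of all genes), all but Tgfbr1, and endothelial cells over pericytes for 6 (35.0%), all but Tgfb1 and Tgfbr1. Without the diestrus library the edgeR adjusted p in endothelial cells over astrocytes was 0.112 for Tgfb3 (-1.02) and 0.199 for Smad3 (0.51). Smad3 in endothelial cells over pericytes, at 0.71 ± 0.27 (edgeR adjusted p = 0.0476), had an edgeR adjusted p of 0.113 without the estrus, 0.148 without the diestrus and 0.201 without the male library (0.68, 0.85 and 0.55).

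**Figure D2:**
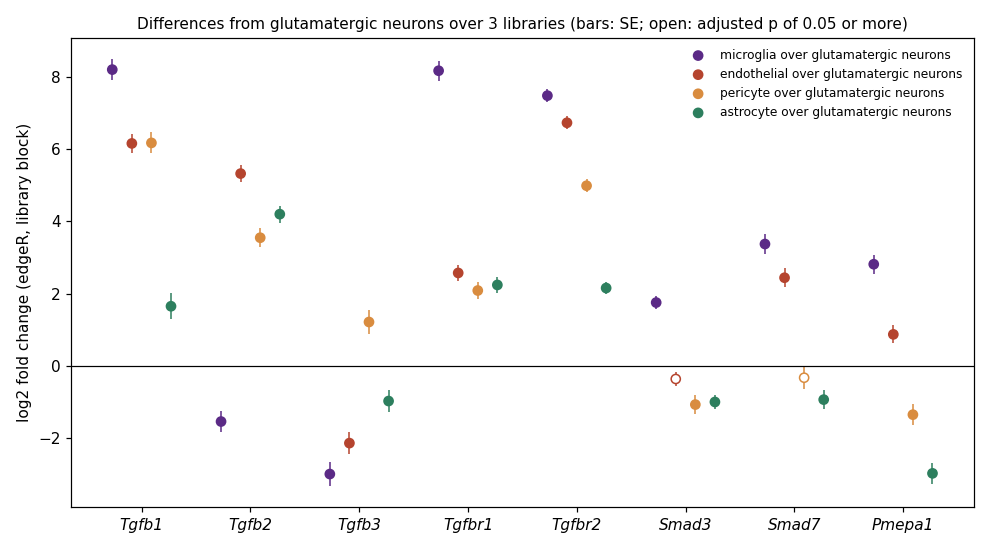
Log2 fold change of each member in microglia, endothelial cells, pericytes and astrocytes over glutamatergic neurons, from edgeR's fit over 3 libraries with the library as a block; bars are SE and open points were not called. Tgfb1, Tgfbr1 and Tgfbr2 lay above 0 in all 4 contrasts, Tgfb2 was negative only for microglia, and Smad3 was positive only for microglia.

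Smad3 (chromosome 9: 63646767 to 63757994), the transducer activated by the type I receptor, had 105, 138 and 104 CPM in microglia. Among neurons it differed by class, with 45.5, 33.0 and 32.6 CPM in glutamatergic neurons and 3.20, 6.27 and 5.25 CPM in GABAergic neurons. These neuron classes did not overlap, and their log2 fold change was 3.06 ± 0.25 (SE, edgeR adjusted p = 9.08e-09). Glutamatergic over GABAergic neurons was called for 6 of the 8 members against 33.6% of all genes, with Smad3, Pmepa1 (2.09 ± 0.28) and Smad7 (0.90 ± 0.27) higher and Tgfbr2 (-1.19 ± 0.21), Tgfb2 (-0.84 ± 0.27) and Tgfbr1 (-0.65 ± 0.23) lower. Without the diestrus library 3 remained called in this contrast, and the edgeR adjusted p was 0.459 for Tgfbr1, 0.106 for Tgfb2 and 0.105 for Smad7; without the male library it was 0.171 for Tgfbr1 and 0.132 for Tgfb2. Endothelial cells (22.3 to 31.7 CPM), pericytes (13.6 to 26.8 CPM) and astrocytes (14.2 to 22.4 CPM) overlapped for Smad3. The male pericyte value of 13.6 CPM rests on 11 UMIs, and the neuronal RNA measured there would amount to 4.34 CPM.

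Smad7 (chromosome 18: 75367529 to 75395935), which blocks the type I receptor, had 559, 284 and 218 CPM in microglia, 443, 337 and 286 CPM in oligodendrocytes and 284, 154 and 101 CPM in endothelial cells. Microglia and oligodendrocytes overlapped, and their order differed between the libraries. Smooth muscle cells had 44.6 to 71.9 CPM, pericytes 18.6 to 45.6 CPM, glutamatergic neurons 25.1 to 49.7 CPM and astrocytes 15.9 to 22.3 CPM. Oligodendrocytes thus had high Smad7 beside 32.5 to 36.2 CPM of Tgfbr1 and 1.38 to 1.70 CPM of Tgfbr2. That Tgfbr2 level was 0.383 to 0.472% of the microglial one, where microglial genes kept out of the sorting stood at 0.314 to 0.321%. With every cell thinned to 2000 UMIs, 56.5%, 44.5% and 41.0% of oligodendrocytes held a Smad7 UMI, against 3.10%, 2.77% and 3.49% of astrocytes.

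Pmepa1 (chromosome 2: 173224458 to 173276533), a membrane protein that binds Smad2 and Smad3 and limits their activation, had 913, 456 and 378 CPM in microglia and 326, 117 and 57.2 CPM in endothelial cells. Oligodendrocyte precursor cells had 244, 88.9 and 53.2 CPM and glutamatergic neurons 161, 69.3 and 51.1 CPM. Astrocytes were lowest by mean, with 14.2, 10.9 and 8.18 CPM, where the neuronal RNA measured there would amount to 3.49, 3.63 and 3.74 CPM. Microglial genes kept out of the sorting stood in astrocytes at 0.467%, 0.379% and 0.546% of their microglial level in estrus, diestrus and male. Endothelial genes stood there at 0.453%, 0.381% and 0.305% of their endothelial level. The part of such RNA in the astrocyte Pmepa1 values and ratios was not tested. In every class with at least 100 cells per library the estrus value was the highest of the 3, and microglia stood above every other class within each library. Endothelial cells over glutamatergic neurons gave a log2 fold change of 0.86 ± 0.25 (SE, edgeR adjusted p = 0.00408), but without the diestrus library the edgeR adjusted p was 0.0767 (0.88).

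Estrus, diestrus and male libraries could be set side by side within each of 8 classes with at least 100 cells in every library. With 1 library per group there is no replicate check and no test, and a ratio compares these libraries. Log2 ratios carry 1 CPM added to each side, and their 95% intervals are exact conditional binomial intervals of the UMI ratio without it, which cover counting error only. Estrus over diestrus and estrus over male share the estrus library. Members with at least 50 UMIs over both libraries of a pair were counted, and a ratio of at least 2-fold was the size used for counts. Over all genes the median log2 ratio was not 0 in endothelial cells, at -0.21 for estrus over diestrus and -0.22 for estrus over male; edgeR's TMM factors moved all ratios there by 0.19 and 0.24, and those of microglia by 0.09 and 0.11, of oligodendrocytes by 0.11 and 0.17 and of astrocytes by 0.05 and 0.10.

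The feedback inhibitor Pmepa1 was higher in the estrus library than in either other library in 8 of 8 classes. Estrus over diestrus gave log2 ratios of 1.00 (0.96 to 1.05) in microglia, 1.48 (1.40 to 1.58) in endothelial cells, 1.67 (1.11 to 2.33) in pericytes, 1.45 (1.15 to 1.78) in oligodendrocyte precursor cells and 1.21 (1.16 to 1.28) in glutamatergic neurons. GABAergic neurons were at 0.98, oligodendrocytes at 0.66 and astrocytes at 0.35, whose interval (-0.12 to 0.90) spanned 0. These last 3 values moved most with the processing, over 0.43 to 1.11 in GABAergic neurons, 0.05 to 0.81 in oligodendrocytes and 0.21 to 1.07 in astrocytes. The ratio was thus at least 2-fold in 5 of 8 classes, and 0.256% of the 5468 genes measured in all 8 reached it in 5 or more. In microglia it lay at the cutoff and ranged from 0.95 to 1.13 over the alternatives. Estrus over male gave 1.27 (1.22 to 1.33) in microglia, 2.49 (2.35 to 2.68) in endothelial cells, 2.81 (1.97 to 4.01) in pericytes, 2.18 (1.78 to 2.64) in oligodendrocyte precursor cells, 1.64 (1.57 to 1.74) in glutamatergic neurons and 1.83 (1.44 to 2.42) in GABAergic neurons. It was at least 2-fold in 6 of 8 classes, and 0.219% of 5030 genes reached this in 6 or more.

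Diestrus over male was smaller in most classes, from 0.27 (0.21 to 0.34) in microglia to 1.01 (0.84 to 1.21) in endothelial cells, and Pmepa1 was higher in diestrus in 7 of the 7 classes measured. The male pericyte value of 12.4 CPM rests on 10 UMIs, and the neuronal RNA measured there would amount to 6.83 CPM. Of microglia thinned to 2000 UMIs, 79.1% held a Pmepa1 UMI in estrus, 56.2% in diestrus and 52.0% in the male library (unthinned 93.4%, 69.7% and 55.4%), with 151, 424 and 778 shallower cells left out. Of endothelial cells so thinned 46.3%, 18.6% and 10.9% held one (unthinned 71.5%, 33.1% and 13.5%), and of astrocytes 3.51%, 1.64% and 1.62%. Shallower cells were left out of these classes too. Before thinning, endothelial cells had medians of 4742.5, 3748 and 2247 UMIs in estrus, diestrus and male.

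**Figure D3:**
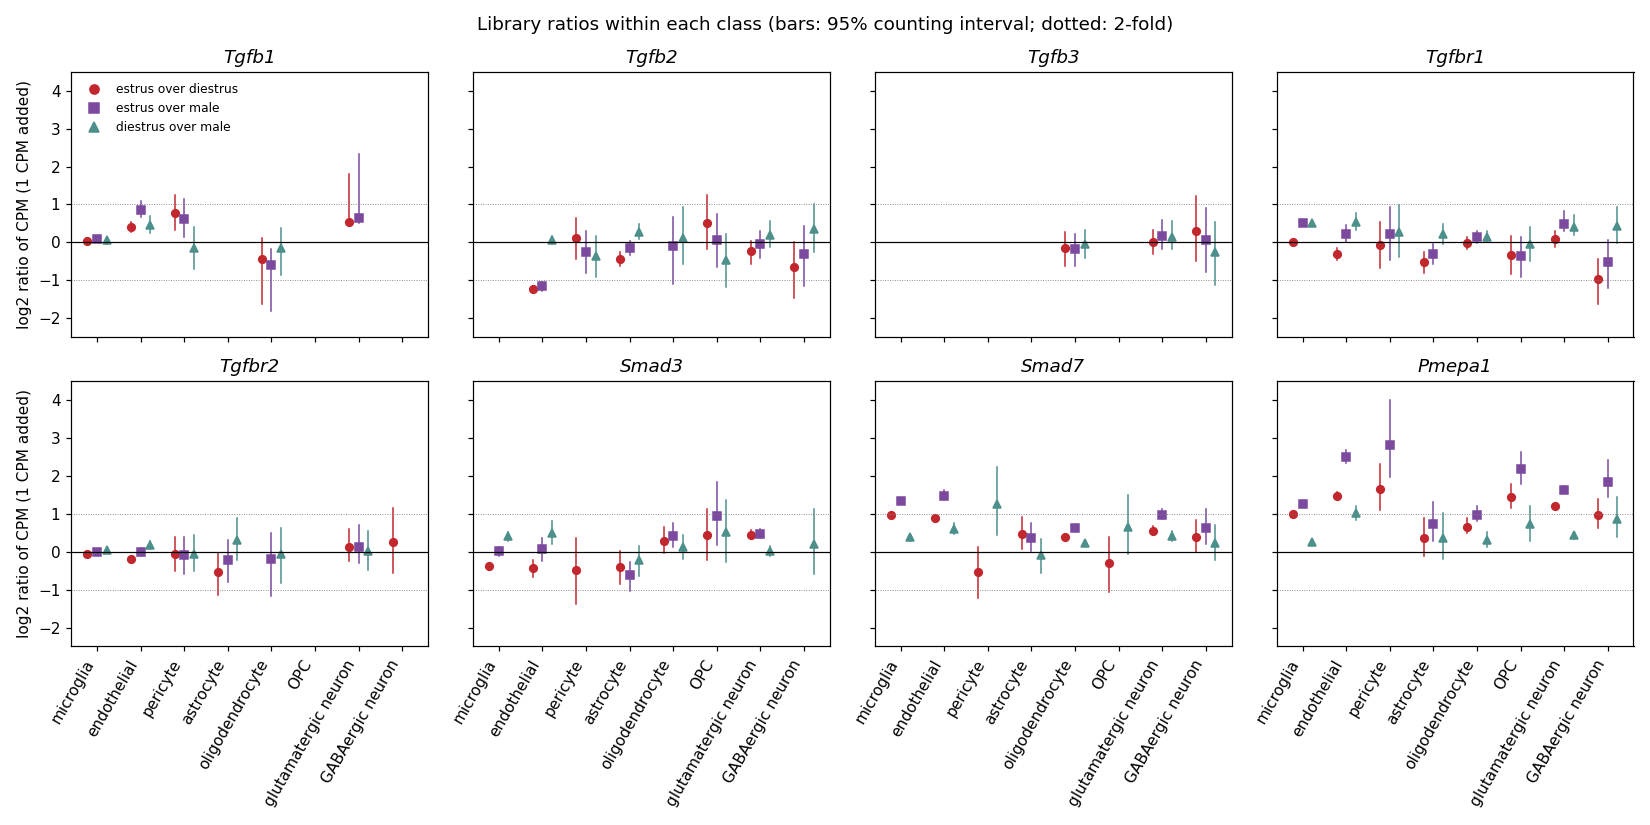
Log2 ratio of each member between libraries within 8 classes (1 CPM added), with 95% exact conditional binomial intervals of the UMI ratio without the added CPM; only pairs with 50 or more UMIs are drawn, and dotted lines mark 2-fold. Pmepa1 lay above 0 in estrus over diestrus and estrus over male in all 8 classes, while Tgfb2 in endothelial cells lay at -1.23 and -1.16.

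Smad7 was also higher in the estrus library in microglia and vascular endothelium. In microglia its log2 ratio was 0.97 (0.92 to 1.03) for estrus over diestrus and 1.35 (1.28 to 1.43) for estrus over male. In endothelial cells these were 0.88 (0.80 to 0.96) and 1.49 (1.36 to 1.63). Glutamatergic neurons gave 0.56 and 0.96, and oligodendrocytes 0.39 and 0.63. Smad7 was higher in estrus than in diestrus in 6 of 8 classes. In pericytes it was lower in estrus than in diestrus at -0.53, with an interval from -1.22 to 0.12. Their diestrus over male ratio was 1.25 (0.44 to 2.23) from 51 and 15 UMIs. Oligodendrocyte precursor cells were also lower in estrus than in diestrus, at 26.15 against 32.58 CPM (-0.96 to -0.24 over the alternatives). That range leaves out counting error, and the class held 96 Smad7 UMIs over all 3 libraries, so the sign is not settled. Of thinned microglia 52.5%, 36.5% and 31.6% held a Smad7 UMI, and of thinned endothelial cells 41.9%, 24.3% and 18.8%.

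**Figure D4:**
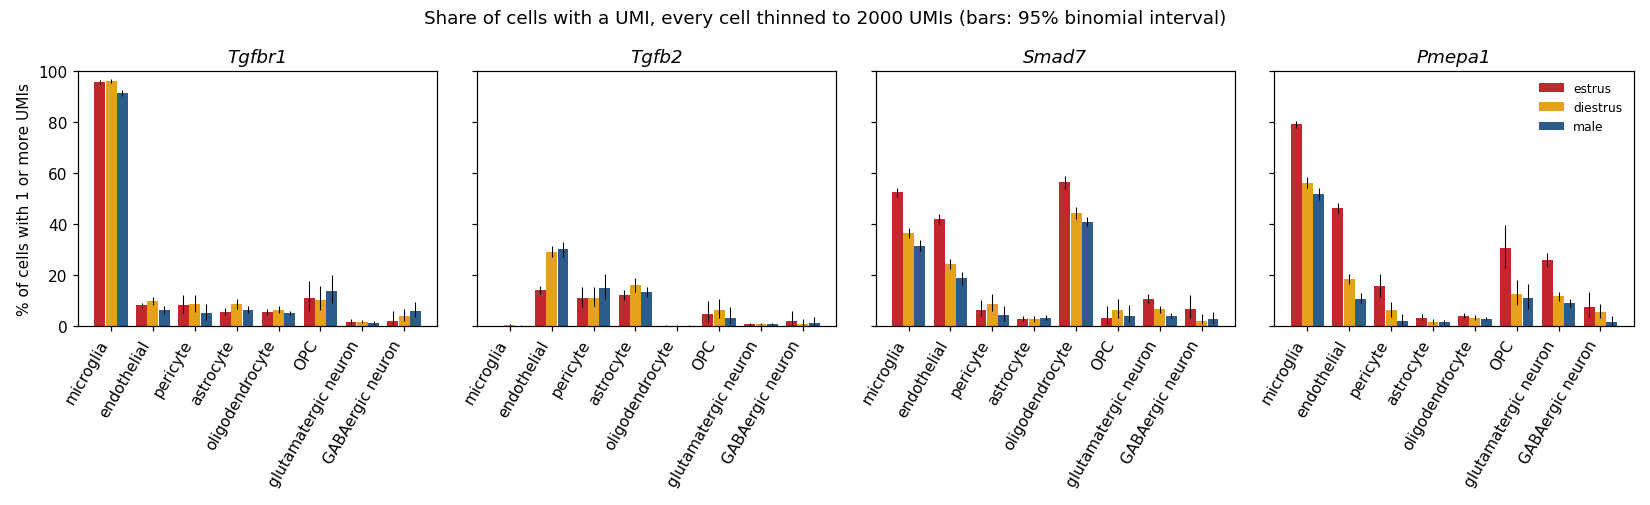
Share of cells with 1 or more UMIs of Tgfbr1, Tgfb2, Smad7 and Pmepa1 after every cell was thinned to 2000 UMIs, by class and library, with 95% Clopper-Pearson intervals. Cells with fewer UMIs were left out. The Pmepa1 share was highest in estrus in all 8 classes, and that of Tgfb2 in endothelial cells was 14.2% in estrus, 29.3% in diestrus and 30.2% in male.

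Ligand and receptor genes gave ratios of both signs. In endothelial cells Tgfb2 was lower in estrus, with log2 ratios of -1.23 (-1.33 to -1.14) to diestrus and -1.16 (-1.28 to -1.05) to male, and with TMM factors these were -1.04 and -0.91. By contrast Tgfb1 in endothelial cells was at 0.40 (0.26 to 0.55) and 0.86 (0.67 to 1.09). Tgfb2 in astrocytes was at -0.43 (-0.62 to -0.25) and -0.15 (-0.33 to 0.03). Tgfbr1 in microglia was at 0.01 (-0.01 to 0.03) for estrus over diestrus and at 0.52 (0.49 to 0.55) for estrus over male, so the male library was the low one. In GABAergic neurons Tgfbr1 was at -0.95 (-1.62 to -0.45) for estrus over diestrus, from 35 and 99 UMIs. Tgfbr2, as rounded, stayed within -0.05 and 0.05 in microglia for all 3 pairs and within -0.18 and 0.18 in endothelial cells. Over the alternatives its ratios ranged from -0.13 to 0.13 in microglia and from -0.27 to 0.27 in endothelial cells.

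Counted by class, 1 of 6 measured members was at least 2-fold higher in estrus than in diestrus in microglia (Pmepa1, at the cutoff). There 0 were lower, and 0.612% of all genes were higher and 8.29% lower. Against male, 2 of 6 were higher (Smad7 and Pmepa1; 1.12% of all genes higher, 12.9% lower). In diestrus over male 0 of 6 passed (0.437% higher, 2.29% lower). In endothelial cells 1 of 7 was higher in estrus than in diestrus and 2 of 7 than in male, where 1.19% and 2.32% of all genes were. Tgfb2 was the single member lower there in both, where 7.69% and 13.9% of all genes were lower. Pmepa1 alone of 7 was higher there in diestrus than in male (0.395% higher, 2.18% lower).

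Among the other classes, Pmepa1 alone was at least 2-fold higher in pericytes, in 1 of 7 members for estrus over diestrus (1.14% of all genes higher, 4.33% lower) and 1 of 5 for estrus over male (2.02% higher, 5.82% lower). Smad7 alone of 5 was higher there in diestrus than in male (1.00% higher, 1.11% lower). In glutamatergic neurons Pmepa1 alone of 8 was higher in estrus than in diestrus (0.376% higher, 0.681% lower) and than in male (0.591% higher, 1.66% lower), and 0 of 7 passed in diestrus over male (0.0789% higher, 0.125% lower). In oligodendrocyte precursor cells it was 1 of 5 (1.77% higher, 1.19% lower) and 1 of 4 (1.43% higher, 1.77% lower), with 0 of 5 in diestrus over male (0.390% higher, 0.604% lower). In GABAergic neurons 0 of 6 passed in estrus over diestrus (0.640% higher, 2.77% lower), Pmepa1 alone of 5 in estrus over male (0.558% higher, 2.05% lower) and 0 of 6 in diestrus over male (0.356% higher, 0.222% lower). No measured member passed 2-fold in astrocytes in estrus over diestrus (1.05% of all genes higher, 3.52% lower), estrus over male (1.12% and 5.45%) or diestrus over male (0.397% and 0.523%). The same held in oligodendrocytes, where the shares of all genes were 0.649% higher and 2.40% lower, 0.801% and 5.29%, and 0.160% and 0.494%.

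Immediate early and heat shock genes, known to be induced by tissue dissociation, also differed between the libraries. Over 9 such genes the summed level in microglia was 6756 CPM in the estrus library, 4265 CPM in diestrus and 4078 CPM in the male one. Jun had 2892, 1461 and 1406 CPM there. In endothelial cells the sums were 1347, 2813 and 1869 CPM, and in pericytes 1604, 2292 and 1208 CPM. None of the 9 was at 0 in these classes. Pmepa1 and the summed level of this list thus moved the same way in microglia and opposite ways in endothelial cells between estrus and diestrus. Their part in the members' ratios was not tested.

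Other genes of the pathway were taken from lists. Of 17 genes known to be induced by TGF-beta family signals, 16 were measured in microglia for estrus over diestrus and 15 in endothelial cells. In microglia 1 was at least 2-fold higher and 1 lower (0.612% and 8.29% of all genes), with a median log2 ratio of -0.13 (all genes -0.11). In endothelial cells 4 were higher and 1 lower (1.19% and 7.69% of all genes), with a median of 0.48 (all genes -0.21), and 5 were higher and 1 lower than in male (2.32% and 13.9% of all genes). Cdkn1a, the cell cycle inhibitor p21, had 965, 244 and 181 CPM there, and Id1, a transcription inhibitor induced mainly by BMP signals, 3062, 1442 and 1420 CPM. Klf10, a TGF-beta inducible zinc finger gene, had 99.6, 39.8 and 28.5 CPM, and Spsb1, which targets Tgfbr2 for degradation, 28.0, 8.74 and 5.67 CPM. In other classes genes of the same list went both ways. Cdkn1a had 56.1, 6.9 and 6.7 CPM in oligodendrocytes, where Id2 had 6.3, 14.7 and 21.45 CPM. In astrocytes Cdkn1a had 23.9, 11.3 and 5.5 CPM and Spsb1 21.8, 5.2 and 5.3 CPM. Id2 and Id3, relatives of Id1, had 12.3, 35.7 and 57.1 CPM and 148, 417 and 299 CPM in pericytes, where 1 of 11 measured was higher and 3 lower in estrus than in diestrus (1.14% and 4.33% of all genes). The matricellular genes Ccn1 and Ccn2 had 2.51, 16.4 and 11.7 CPM and 7.26, 21.0 and 18.3 CPM in glutamatergic neurons, where 0 of 14 were higher and 2 lower (0.376% and 0.681% of all genes). The transcription factor gene Sox4 had 18.9, 99.9 and 82.6 CPM in GABAergic neurons, where Id1 had 15.4, 4.4 and 4.8 CPM.

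The homeostatic genes of microglia that depend on TGF-beta were also compared between the libraries. Of 11 such genes, among them P2ry12, Tmem119 and Sall1, 0 passed 2-fold in estrus over diestrus in microglia. There 0.612% of all genes were higher and 8.29% lower, so a count of 0 is near that of any list. The median log2 ratio of the 11 was 0.02. In estrus over male 1 passed it (1.12% of all genes higher, 12.9% lower), with a median of 0.08. It was Rhob, at 1694, 999 and 829 CPM in the estrus, diestrus and male libraries. All 11, a list chosen as microglial genes, were higher in microglia than in glutamatergic neurons, where 37.4% of all genes were higher. Fcrls had a log2 fold change of 10.0 ± 0.20 (SE, edgeR adjusted p = 1.71e-18). Mertk, a phagocytic receptor of this list, had 238, 58.4 and 52.3 CPM in oligodendrocyte precursor cells.

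Of 11 genes that hold or free the latent ligand, 10 were tested, and 5 were higher and 4 lower in microglia than in glutamatergic neurons, where 37.4% of all genes were higher and 40.6% lower. Itgb5, an integrin subunit, stood 10.8 ± 0.35 higher and Nrros, which holds latent TGF-beta 1 on microglia, 5.75 ± 0.45 higher (log2 fold change with SE, edgeR adjusted p = 2.75e-16 and 3.21e-10). In endothelial cells 7 were higher and 1 lower than in glutamatergic neurons (35.5% and 38.5% of all genes), led by Lrrc32, a cell surface holder of latent ligand, at 5.33 ± 0.37 and the latent binding protein gene Ltbp4 at 5.17 ± 0.21. Lrrc32 was 7.78 ± 0.49 lower in microglia than in pericytes, on the log2 scale (edgeR adjusted p = 2.27e-11), while Nrros was 6.32 ± 0.71 higher (edgeR adjusted p = 1.88e-07). In astrocytes Nrros had 84.6, 18.3 and 18.7 CPM in the estrus, diestrus and male libraries, and the pseudoreceptor gene Bambi 64.2, 14.6 and 6.01 CPM. The 5 microglial genes kept out of the sorting stood in those astrocytes at 0.467%, 0.379% and 0.546% of their microglial level.

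Among the other receptors of the superfamily, 5 of 11 were higher and 5 lower in endothelial cells than in glutamatergic neurons. These counts, and those of the lists that follow, stand beside 35.5% of all genes higher and 38.5% lower in endothelial cells, and 37.4% higher and 40.6% lower in microglia. Acvrl1, an endothelial type I receptor, was 8.19 ± 0.22 higher and its coreceptor gene Eng 7.92 ± 0.23 higher (log2 fold change with SE). Of 6 other Smad genes 4 were higher and 1 lower there, with the BMP inhibitor Smad6 at 8.14 ± 0.36. Of 13 pathway regulators 7 were higher and 4 lower in both microglia and endothelial cells, led by the corepressor gene Tgif1 at 10.9 ± 0.44 in microglia. Of 11 activin and BMP ligands 1 was higher and 5 lower in microglia, and of 7 secreted inhibitors 1 was higher and 6 lower.

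The genes whose pattern was most like that of each member were sought over the 24 combinations of class and library with at least 100 cells, by Pearson's r of log2(CPM + 1) among 11722 genes; these values share libraries and depth and are a description. Among the 3 closest to each were Gm12185 (r = 0.981) and Rcsd1 (0.979) for Tgfb1, Gulp1 for Tgfb2 (0.971), Thsd4 for Tgfb3 (0.903), C1qa (0.962) and Ctss (0.960) for Tgfbr1, Lrrk1 for Tgfbr2 (0.968), Numb for Smad3 (0.931), Ubl3 for Smad7 (0.891) and Uvrag for Pmepa1 (0.905). C1qa was among the genes that defined microglia here. Smooth muscle cells, too few in the male library, were outside this search.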

How the data were processed

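Single cells of the medial prefrontal cortex were measured in 3 droplet libraries (10x Genomics 3′ kit), per the labels' protocols. The authors deposited UMI counts per gene and barcode, not normalized. They were made on mm10 with Cell Ranger 3.0.2 per the submitters' processing notes and with Cell Ranger 7.0.0 per the file headers. Neither source says which annotation was used or how introns and strand were treated. The matrices held 14476, 18052 and 19555 barcodes and 152291602, 144738154 and 115632520 UMIs in estrus, diestrus and male.

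Barcodes with fewer than 500 genes or more than 15% mitochondrial UMIs were removed, and so were those above a Scrublet score of 0.3 (scanpy 1.11.5; 681, 726 and 779 barcodes), which left 12300, 14129 and 15565 cells. Classes came from marker genes; border macrophages took precedence over microglia, pericytes and smooth muscle cells were told apart by the larger share of markers, and 1338, 3761 and 4005 cells stayed ungated. UMIs were summed per class and library and fitted with edgeR 4.0.16 in R 4.3.3 (TMM factors, filterByExpr, library block), which was tested on simulated data; calls have an adjusted p under 0.05. Shares carry Clopper-Pearson intervals. Intervals and the limit of 3 counts for a count of 0 cover counting error only. DESeq2 1.42.0, other factors, gates, thinning, pseudocounts and filters and the leaving out of each library were alternatives.

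Gene coordinates come from GENCODE M21 (mm10), in which 32235 of 32285 genes matched. The members and lists were chosen with earlier results of these data known. Beside the 8 members, the text names from the lists up to 3 called genes with the largest change per list and contrast, genes past 2-fold in estrus over both other libraries, and the gene or genes of most alike pattern. Tmem119, P2ry12 and the overlapping gene Ttll5 were named outside this rule after their values were seen. Some genes that this rule names are not reported here. The subclass makeup of gated neurons was not analysed here.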

Additional observations from a re-analysis of the deposited data

Results flagged for a closer look

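Members whose library ratios pointed opposite ways in 2 of the 8 classes, with the 95% counting interval of each ratio on its own side of 0, were singled out, and for each the most distant classes are given. The difference between the classes was not tested, since each group has 1 library. Smad3 in estrus over diestrus was at 0.45 (log2) in glutamatergic neurons and -0.43 in endothelial cells, a gap of 0.88. Across the alternatives the endothelial value ranged from -0.70 to -0.05, with TMM factors shifting endothelial ratios by 0.19, and the glutamatergic one from 0.37 to 0.94. In estrus over male, Smad3 was at 0.95 in oligodendrocyte precursor cells, from 38 and 21 UMIs, and -0.62 in astrocytes, a gap of 1.57. The value in oligodendrocyte precursor cells ranged from -0.24 to 1.03 and so changed sign, while the astrocyte one ranged from -0.72 to -0.42. Glutamatergic neurons were at 0.47 for Smad3 in estrus over male (0.37 to 0.72).

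Tgfb1 in estrus over male was at 0.86 in endothelial cells and -0.61 in oligodendrocytes, a gap of 1.47. Its oligodendrocyte level was 1.24 CPM in estrus and 2.41 CPM in male, from 18 and 58 UMIs, and was 0.504 to 1.04% of the microglial level over the 3 libraries, where microglial genes kept out of the sorting stood at 0.314 to 0.321%. The oligodendrocyte ratio ranged from -0.95 to -0.14 and the endothelial one from 0.74 to 1.12. Tgfbr1 in estrus over male was at 0.52 in microglia and -0.31 in astrocytes, a gap of 0.83, with ranges of 0.40 to 0.64 and -0.37 to -0.20.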

How the results depend on the processing

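Of 150 counts of members called per class contrast under alternatives, 148 stayed within 1.5 times the main count. Without the library block pericytes over astrocytes had 3 members called in place of 5. Glutamatergic over GABAergic neurons had 3 to 6 called when a library was left out, with 3 without the diestrus library. Over the 6 classes contrasted, members at least 2-fold higher in estrus than in diestrus numbered 4 and became 7 with TMM factors, DESeq2 size factors, cells thinned to 2000 UMIs or a gene length correction. Those lower numbered 1, then 0 with the length correction and 2 with the mean of cells or with 20 or more UMIs. Lower in estrus than in male went to 0 with TMM factors, DESeq2 size factors or the length correction and to 2 with thinning. Higher in diestrus than in male (2) went to 1 with the strict gate, the mean of cells or the length correction, to 0 with 10 CPM added and to 4 with 20 or more UMIs; lower (0) went to 1 with thinning.

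Fold changes that turned sign were near 0 and not called. Tgfb1 in endothelial cells over pericytes was -0.144 to 0.0319 with a library left out, 0.0353 with no filter, 0.0101 with no library block, 0.0105 with the strict gate and 0.00412 with doublets kept. Smad3 in pericytes over astrocytes was -0.341 to 0.293 with a library left out and 0.0615 with upper quartile factors. Smad7 in astrocytes over GABAergic neurons was -0.189 to 0.0354 with a library left out, 0.124 with no filter, 0.116 with doublets kept and 0.0148 with classes of at least 50 cells. Tgfb1 in glutamatergic over GABAergic neurons was -0.170 to 0.463 with a library left out and -0.0567 with the strict gate. The cause was not tested. The Pmepa1 ratios for estrus over diestrus and over male kept their sign in all 8 classes under every alternative. Among these was the subtraction of neuronal RNA, which was chosen after seeing the data. Free RNA of microglia, endothelial cells or other classes was not subtracted. In endothelial cells the Pmepa1 ratios ranged from 1.41 to 1.70 and from 2.32 to 2.75. In oligodendrocytes they ranged from 0.05 (mean of cells) to 0.81 and from 0.51 to 1.13, in astrocytes from 0.21 to 1.07 and from 0.41 to 1.18, and in GABAergic neurons from 0.43 to 1.11 for estrus over diestrus. No paired analysis was possible because each group has 1 library. Border macrophages, smooth muscle cells and fibroblasts had under 100 cells in at least 1 library and were given no library ratios.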
